A study of Strongylocentrotus droebachiensis with 6 samples.

Results

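The transcripts of BMP2/4, chordin (CHRD) and BMP1 were followed in green sea urchin embryos (Strongylocentrotus droebachiensis) raised from separated blastomeres and in their intact siblings. The 3 rows were taken by name from a table of 31261 rows, and all 3 passed the filter on low values. They stand for a ligand, its antagonist and a protease. Polyadenylated RNA was sequenced from 3 samples of half-size embryos and 3 of intact control siblings, all labelled wild type, at the mesenchyme blastula stage. Fertilised eggs were kept in 3-amino-1,2,4-triazole (ATA, 1 mM), which stops the fertilisation envelope from hardening. Blastomeres of the half-size embryos were separated at 3.5 hours after fertilisation, at the 2-cell stage, by a 15 min wash without calcium and magnesium and passage through a needle. Both kinds of embryo were raised at 8 °C to 46 hours. The labels do not say whether the controls were also washed and passed through the needle, so reduced size and those steps cannot be told apart here.

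BMP2/4 is a secreted ligand of the TGF-beta superfamily. In sea urchin embryos it is transcribed in the oral ectoderm and signals in the aboral ectoderm, on the opposite side. Chordin is made in the same oral territory, binds the ligand and keeps it from its receptors. Tolloid-type metalloproteases of the BMP1 family cut chordin in vertebrates, and its counterpart in flies, and so release the ligand. Scaling asks how such a circuit keeps its proportions when the embryo is smaller, and the title of the study names this question.

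The libraries held 1804336 to 2294541 reads, recovered from the deposited normalised read counts. All 21 stage markers of skeletogenic mesenchyme, other mesoderm, endoderm and ectoderm that matched a row had a mean of at least 1 in both groups. Each half-size library deviated from its group mean together with 1 control library (r = 0.76, 0.63 and 0.52 over 11129 rows, at most 0.01 for any other combination of a half-size and a control library). These are called pairs A, B and C. Centring each group on its own mean pushes r of the other combinations towards negative values, so their low r is no separate evidence for the pairs. The pairs come from the values, not from the labels, and what the libraries of a pair share is not known. Levels are reads scaled by 1 size factor for each library, so they are relative and do not give transcripts per embryo. In whole embryos, fewer cells of a type and less RNA per cell cannot be told apart.

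BMP2/4, the ligand, had close levels in both groups. The half-size libraries of pairs A, B and C had 188, 207 and 247 normalised read counts, and the control libraries had 220, 219 and 236. The groups overlapped, and half-size embryos held both the lowest and the highest value. The mean was 214 ± 30.2 in half-size and 225 ± 9.48 in intact embryos (SD, n = 3 each). Counting error alone would give an SD of 14.9 in half-size and 14.7 in control libraries, so the control libraries lay closer together than counting error and the half-size libraries further apart. Each value rested on 190 to 254 reads, and for the lowest, in half-size embryos of pair A, the exact 95% Poisson interval was 164 to 219 reads. These intervals cover counting error only. The log2 difference was -0.08 ± 0.19 (SE, limma-trend), which is a 0.947-fold level with a 95% interval from 0.703 to 1.28. Within pairs the log2 difference was -0.22, -0.08 and 0.07, so the value was lower in 2 pairs and higher in 1. The difference did not pass the test (limma-trend adjusted p = 1.00; two-sided exact permutation p = 0.5, of which 0.1 is the smallest possible). It was 0.00907 with the half-size library of pair A left out, -0.19 without that of pair C and -0.04 without the control library of pair C.

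CHRD, the antagonist, was higher in value in 3 of 3 pairs. It had 1073, 1667 and 1497 normalised read counts in the half-size libraries of pairs A, B and C, and 954, 1520 and 929 in the control libraries. The groups overlapped, because the control library of pair B lay above the half-size libraries of pairs A and C. The mean was 1412 ± 306 in half-size and 1134 ± 334 in intact embryos (SD, n = 3 each). The counting SD was 38.1 in half-size and 32.7 in control libraries, so the spread within both groups was far larger than counting error. The log2 difference was 0.33 ± 0.24 (SE, limma-trend), a 1.26-fold level with a 95% interval from 0.860 to 1.84. It did not pass the test (limma-trend adjusted p = 1.00; two-sided exact permutation p = 0.3). Pair C held most of the difference, with 0.69, against 0.17 in pair A and 0.13 in pair B. With the pair as a block the difference was 0.15 without pair C. Without the block, leaving out 1 control library gave 0.56 (pair B) or 0.21 (pair C), and leaving out 1 half-size library gave 0.52 (pair A) or 0.20 (pair B).

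BMP1, the protease, was the member with the largest difference of the 3. It had 634, 939 and 840 normalised read counts in the half-size libraries of pairs A, B and C, against 469, 745 and 490 in the control libraries. The half-size library of each pair was the higher one, while the groups overlapped because the control library of pair B exceeded the half-size one of pair A. The mean was 804 ± 156 in half-size and 568 ± 154 in intact embryos (SD, n = 3 each). The log2 difference was 0.52 ± 0.23 (SE, limma-trend), a 1.43-fold level with a 95% interval from 0.994 to 2.06. Within pairs the log2 difference was 0.44, 0.33 and 0.78. It did not pass over all rows (limma-trend adjusted p = 1.00, unadjusted p = 0.0534; two-sided exact permutation p = 0.2). With the pair as a block the standard error was 0.13 and the unadjusted p was 0.00248 (limma-trend), and the adjusted p was 0.521.

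**Figure D1:**
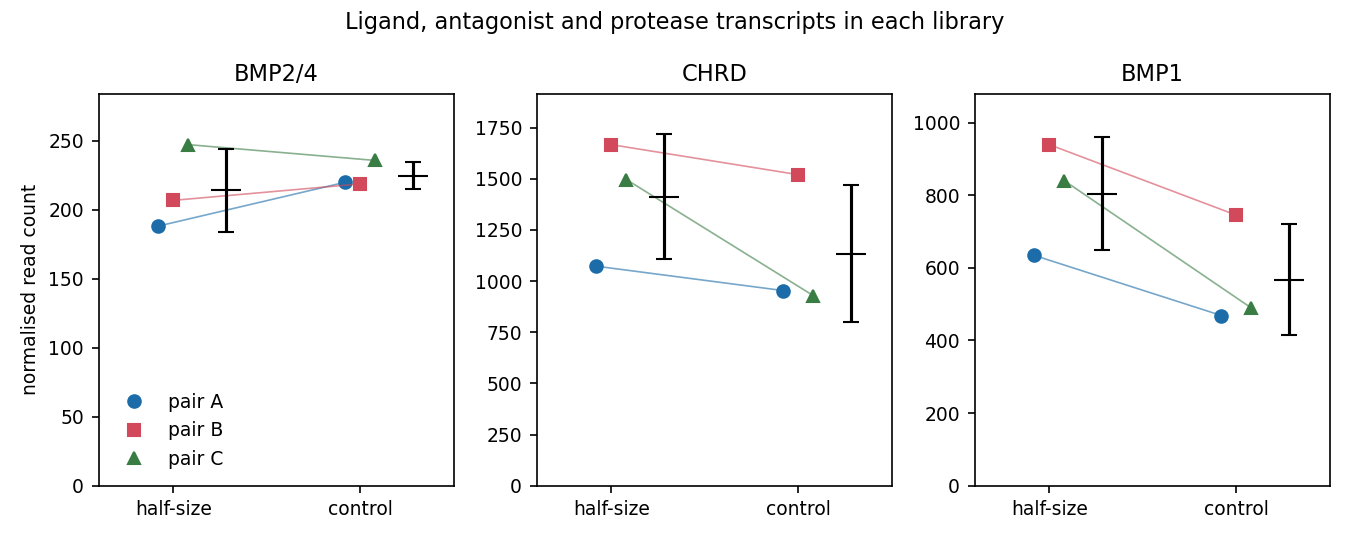
Normalised read counts (vertical axes, each from 0) of the ligand BMP2/4, the antagonist CHRD and the protease BMP1 in the 3 half-size and 3 control libraries, with lines joining the libraries of a pair and black bars for the mean ± SD (n = 3). CHRD and BMP1 lay higher in the half-size library of each pair and overlapped between groups, while BMP2/4 ran from 188 to 247 in half-size and from 219 to 236 in control libraries.

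None of the 3 members passed at an adjusted p under 0.05 in limma-trend, where 0% of 18016 rows were called higher and 0% lower. An unadjusted p under 0.05 was found in 1.34% (242 rows). Variation that followed the pairs stays in the error of this fit. With the pair as a block, 0.0167% of rows were called, and again 0 of the 3 members. In that fit CHRD (unadjusted p = 0.0346) and BMP1 (unadjusted p = 0.00248) were among the 2.76% of rows that had a higher value at an unadjusted p under 0.05 (limma-trend), and BMP2/4 (unadjusted p = 0.584) was not. Of all rows, 13% had a higher value in the half-size library of all 3 pairs, as CHRD and BMP1 did, and this was 15.2% of the 3073 rows with a mean of at least 100. Groups did not overlap in 5.35% of rows, and in 0 of the 3 members. Among the rows with a mean of at least 100, a log2 difference as far from 0 as that of BMP1 was found in 2.73%, one as far as that of CHRD in 8.2% and one as far as that of BMP2/4 in 62.1%.

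**Figure D2:**
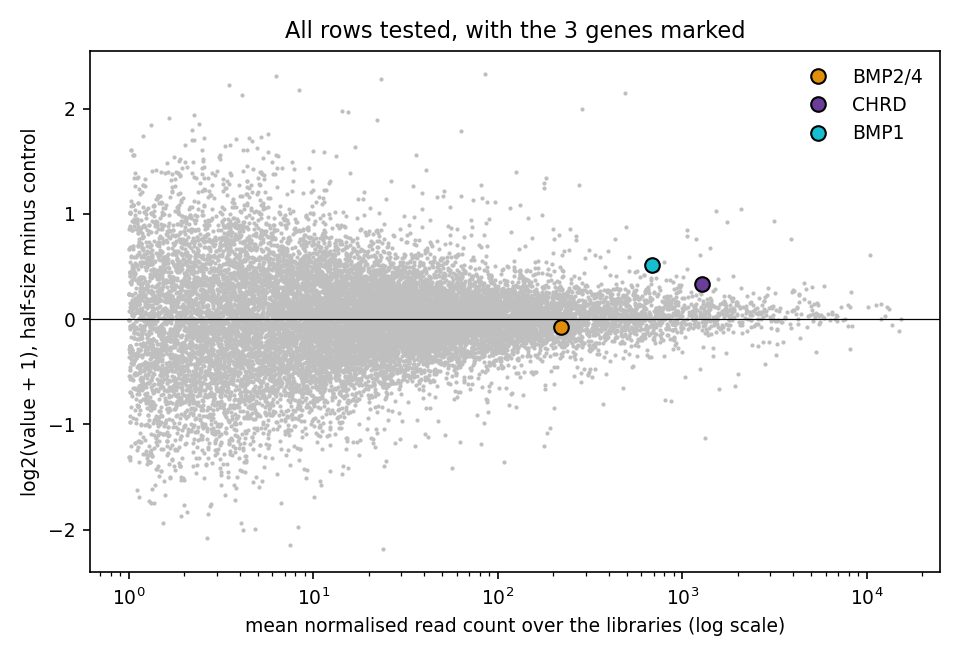
Log2 difference, half-size minus control on the log2(value + 1) scale (vertical axis), against mean normalised read count (horizontal axis, log scale) for the 18016 rows tested, 1 point each, with the 3 genes marked. BMP1 (0.52) and CHRD (0.33) lie above most rows of like abundance, and BMP2/4 (-0.08) lies among them.

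In the authors' deposited table BMP2/4 had a fold change of -0.07 on the log2 scale (SE 0.24), CHRD one of 0.32 (SE 0.28) and BMP1 one of 0.50 (SE 0.27). Its unadjusted p-values, as deposited by the authors, were 0.759 for BMP2/4, 0.259 for CHRD and 0.0651 for BMP1, and its adjusted p was 1.00 for each.

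The members differed in how much of their variation followed the pair. The pairs were chosen from these same values, which raises the share of the pair. Noise alone would also give a share to the pair and to the group. That share was not computed, so no conclusion is drawn from how the members differ in these shares. For BMP2/4 67.9% of the sum of squares over the 6 libraries followed the pair, 9.74% the group and 22.3% neither. For CHRD these shares were 63.0%, 23.3% and 13.7%. For BMP1 the pair took 46.2% and the group 47.4%, with 6.43% left. With sums of squares pooled over the 11129 rows that averaged 10 or more, 74.9% followed the pair, 9.0% the group and 16.1% neither. The most variable rows weigh most in these pooled shares, so they are not the shares of a typical row. The group share of BMP2/4 was close to the pooled one, and BMP1 had about as much variation along the group as along the pair. CHRD and BMP1 shared the half-size library of pair B as their highest library, whereas BMP2/4 was highest in the half-size library of pair C.

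Ratios between the members were taken from reads within a library, so they do not depend on its scaling. They are not corrected for transcript length, which the table does not give. They are therefore compared between libraries and not read as relative amounts of the transcripts.

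The library ratio of antagonist to ligand, CHRD to BMP2/4, was 5.70, 8.06 and 6.05 in the half-size libraries of pairs A, B and C, and 4.33, 6.95 and 3.94 in the control libraries. It was higher in the half-size library of each pair, by 0.39, 0.21 and 0.62 on the log2 scale, and the groups overlapped through pair B. The mean ratio was 6.60 ± 1.27 in half-size and 5.07 ± 1.63 in intact embryos (SD, n = 3 each). On the log2 scale half-size embryos differed by 0.41, a 1.33-fold ratio, with no call (exact permutation test, two-sided p = 0.3, and 0.3 after Benjamini-Hochberg adjustment over 3 ratios, where 0.1 is the smallest unadjusted p). The ratio of every row to BMP2/4 shares this denominator, and it was higher in the half-size library of all 3 pairs for 18.8% of rows.

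The ratio of protease to ligand, BMP1 to BMP2/4, was 3.37, 4.54 and 3.40 in the half-size libraries of pairs A, B and C. The control libraries had 2.13, 3.41 and 2.08. Only the control library of pair B reached the half-size range, where it lay just above the half-size libraries of pairs A and C. The exact 95% binomial intervals did not overlap between the 2 libraries of pair A (2.86 to 3.98 in half-size, 1.81 to 2.52 in control) or of pair C (2.90 to 3.99 in half-size, 1.77 to 2.44 in control). In pair B they were barely separate, from 3.94 to 5.25 in the half-size library and from 2.96 to 3.93 in the control library. These intervals cover counting error and not the spread between samples. The mean was 3.77 ± 0.669 in half-size and 2.54 ± 0.752 in intact embryos (SD, n = 3 each). The ratio was 1.51-fold higher in half-size embryos, which is 0.60 on the log2 scale. The test of this difference made no call (exact permutation test, two-sided p = 0.3, and 0.3 after the same adjustment).

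The ratio of protease to antagonist, BMP1 to CHRD, varied least. It was 0.591, 0.563 and 0.561 in the half-size libraries of pairs A, B and C, and 0.491, 0.490 and 0.527 in the control libraries. All 3 half-size libraries lay above all 3 control libraries, the one ratio of the 3 for which the groups did not overlap. The ratio averaged 0.572 ± 0.0166 in half-size and 0.503 ± 0.0209 in intact embryos (SD, n = 3 each). This is a 1.14-fold ratio, or 0.19 on the log2 scale (0.27 in pair A, 0.20 in pair B and 0.09 in pair C). The exact permutation test gave p = 0.1, two-sided, which is the smallest possible with 3 against 3, and a Benjamini-Hochberg p of 0.3 over 3 ratios. On the log2 scale the SD was 0.04 in half-size and 0.06 in control libraries, where counting error alone would give 0.07 in both. Within each group the ratio therefore varied no more than counting error allows, although BMP1 and CHRD themselves varied by 19.4% to 29.5% of their means. The exact 95% binomial intervals of the 2 libraries overlapped in every pair, as in pair A with 0.535 to 0.652 in half-size and 0.438 to 0.550 in control. Of the other rows, 0.572% had a ratio to CHRD that was higher in half-size embryos without overlap, and 2.71% one that was higher in all 3 pairs. All these ratios share CHRD as denominator, which was itself higher in the half-size library of each pair. This lowers both shares, and rows of low mean are counted in them. They are therefore no measure of how rare the BMP1 to CHRD result is.

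**Figure D3:**
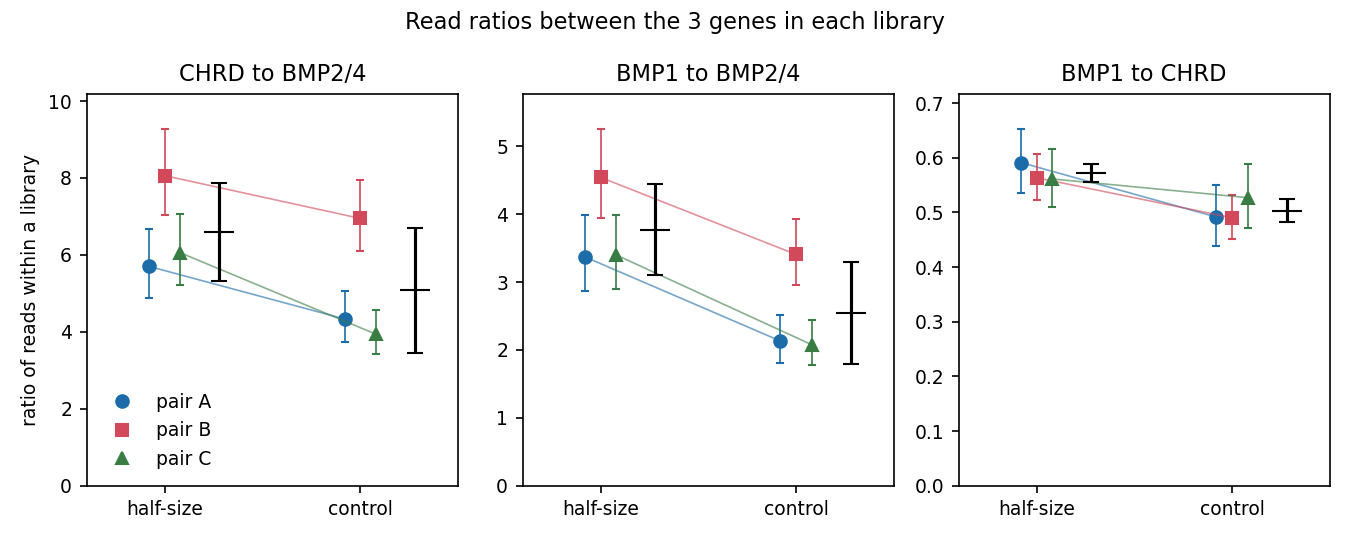
Ratios of reads between 2 genes within a library (vertical axes, each from 0) for the 3 half-size and 3 control libraries, with exact 95% binomial intervals (coloured bars), lines joining the libraries of a pair and black bars for the mean ± SD (n = 3). All 3 ratios were higher in the half-size library of each pair, and the groups did not overlap for BMP1 to CHRD (0.561 to 0.591 in half-size, 0.490 to 0.527 in control).

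The profiles of CHRD and BMP1 over the 6 libraries were close to each other. Likeness was measured as the root mean square distance between log2 profiles, each centred on its own mean, over the 6 libraries that all genes share. Among 190 other named rows with a mean of at least 10, BMP1 ranked second for CHRD, at 0.10, and CHRD ranked second for BMP1, also at 0.10. The nearest row for both was SpZ12-1, a zinc finger gene, at 0.10 from CHRD and 0.06 from BMP1, with a mean of 16.7 normalised read counts and a log2 difference of 0.50 ± 0.37 (SE, limma-trend adjusted p = 1.00). The ranking took no account of counting error, which is large on the log2 scale at such a low mean, so this first place is uncertain. The next row for CHRD was the ion cotransporter gene SLC12A2, at 0.16, and for BMP1 the ETS-family gene Elk, at 0.14. BMP2/4 had a flat profile, with an SD of 0.14 against 0.37 for CHRD and 0.41 for BMP1. Nearest to it were the kinesin gene KIF15 at 0.07, the FGF receptor gene FGFR at 0.08 and the bicarbonate cotransporter gene NBC at 0.10, and it lay 0.36 from CHRD and 0.40 from BMP1.

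Few other genes of the pathway carried a name in the table. Of the genes at the level of ligands, DVR1, a TGF-beta family gene added to the list after the row names were seen, averaged 153 ± 40.6 (normalised reads) in half-size and 109 ± 6.10 in intact embryos (SD, n = 3 each). Its groups did not overlap, as for 2.51% of rows with higher half-size values, and its log2 difference of 0.45 did not pass (limma-trend adjusted p = 1.00). Glypicans are cell surface proteoglycans that can bind such ligands. Gpc-5 had 132 ± 42.9 in half-size against 169 ± 54.3 in intact embryos, and gpc-6 had 59.1 ± 15.3 in half-size against 63.7 ± 10.5 in intact embryos (SD, n = 3 each), both with overlapping groups. Sp-Smad2/3, the transducer of the Nodal and activin branch and not of BMP signals, had 97.5 ± 30.6 in half-size and 97.7 ± 10.3 in intact embryos (SD, n = 3 each). The hatching enzyme gene HE belongs to the matrix metalloproteases rather than to the astacin family of BMP1, and was listed here beside it as a protease. It differed by -0.69 in pair A, 0.05 in pair B and 3.53 in pair C on the log2 scale, so its mean difference of 0.96 rested on pair C (-0.32 without it, with the pair as a block).

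The list of genes for the aboral ectoderm, where BMP2/4 signals, gave 7 negative differences among 8 measured members. Of these members 0 passed over all rows with or without the pair as a block. Hbox7 entered the list by its symbol, and whether it acts in the aboral ectoderm was not checked. With the block and without pair A, IrxA (adjusted p = 0.0363) and Dlx (adjusted p = 0.0146) passed in limma-trend. That setting held only pairs B and C and called 80 of 17846 rows. HE passed there too (limma-trend adjusted p = 8.49e-10), though it differed by 0.05 in pair B and 3.53 in pair C. No conclusion is drawn from these passes. The aboral list had a median log2 difference of -0.45, beside -0.000467 over all 18016 rows, of which 9018 had a negative difference. Hbox7, a Hox gene, averaged 652 ± 6.80 (normalised reads) in half-size and 766 ± 78.3 in intact embryos (SD, n = 3 each). The groups of Hbox7, IrxA and Dlx did not overlap, as for 2.84% of rows with lower half-size values. HMX, a homeobox gene, had 177 ± 40.0 in half-size against 240 ± 44.4 in intact embryos, and Tbx2/3, a T-box gene, had 590 ± 32.5 in half-size against 672 ± 92.1 in intact embryos (SD, n = 3 each), and both were lower in all 3 pairs, as were 12.1% of rows. NK2.2, also a homeobox gene, had 447 ± 117 in half-size against 621 ± 200 in intact embryos (SD, n = 3 each) and was lower in all 3 pairs as well (unadjusted p = 0.00359 and adjusted p = 0.585 in limma-trend with the pair in the model). Msx, another homeobox gene, differed by 0.25, -0.40 and -1.53 in pairs A, B and C. The exception was Not, which stands in the oral list too and differed by 0.04 and was negative when the control library of pair A (-0.12) or the half-size library of pair C (-0.15) was left out. IrxA and Dlx had the lowest values of the list relative to controls, at -0.81 and -0.99 (adjusted p = 0.314 and 0.155 in limma-trend with the pair in the model).

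Regulators of the oral ectoderm, the territory that transcribes BMP2/4 and chordin, gave 4 of 6 lower values and a median log2 difference of -0.14. Over all rows tested, 9018 of 18016 were lower. The ARID factor gene dri had a log2 difference of -1.21 with and without the pair in the model. It passed with the pair (limma-trend adjusted p = 0.0469), the 1 call of this list, and did not pass without it or, with the block, without pair B (adjusted p = 0.114). The gene dri stands among the skeletogenic mesenchyme markers too, where it is also the 1 call. The call therefore cannot be assigned to the oral ectoderm. Gsc, a goosecoid homeobox repressor, had 105 ± 9.22 in half-size and 123 ± 23.6 in intact embryos (SD, n = 3 each). The forkhead gene FoxG had 120 ± 4.76 in half-size against 119 ± 16.6 in intact embryos (SD, n = 3 each), and its log2 difference of 0.02 became -0.019 with scaling by total reads. The list holds otx and FoxA too, which act in several territories. Their log2 differences were -0.08 and -0.22.

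**Figure D4:**
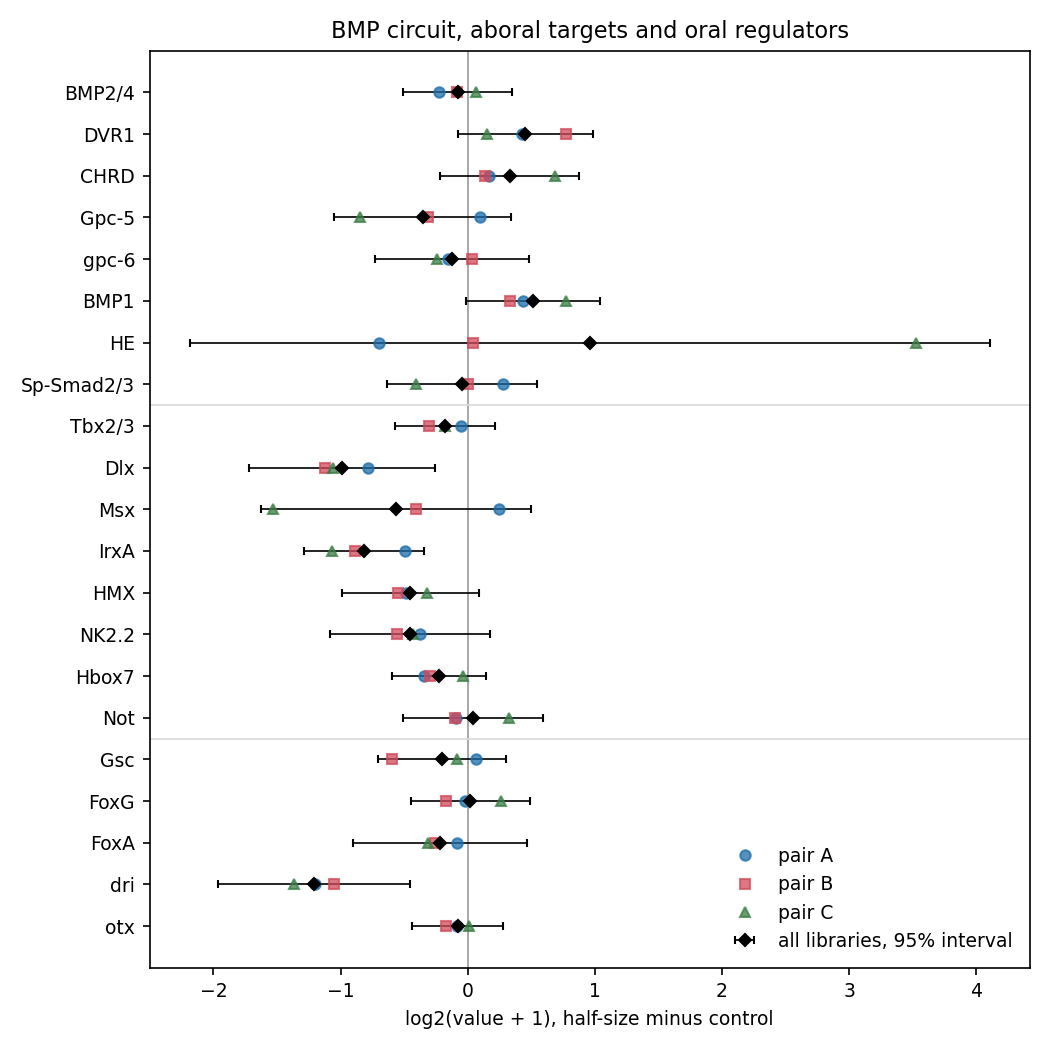
Log2 difference, half-size minus control on the log2(value + 1) scale (horizontal axis), for the 3 genes and other named genes (rows). The 3 blocks hold ligands, modulators, proteases and a SMAD, then the aboral list, then oral regulators. Black diamonds with 95% intervals are from limma-trend over all libraries, and coloured points are single pairs. BMP1 (0.52) and CHRD (0.33) lie right of 0 in every pair. In the fit over all libraries 7 of 8 genes of the aboral list lie left of 0.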

How the data were processed

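The authors deposited 1 table of normalised read counts, a signal equal to reads per gene over 1 size factor for the library. In each column 100% of values were whole multiples of the smallest one (tolerance 1e-06), which returned the reads. Per the file headers, identifiers follow the NCBI annotation of Spur_4.2, a genome of the related Strongylocentrotus purpuratus, and reads from diverged sequence may be lost in both groups. The tools in the submitters' processing notes are Bowtie2 2.2.2, DESeq and edgeR, without roles. How reads were counted, and on which strand, is not stated in the sources used here, so reads of overlapping or antisense genes and close copies cannot be separated. The same table holds the authors' log2 fold changes, their test score and their p-values, per the file headers.

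Headers give a group and no replicate number. Nothing in the labels says that replicates had different parents, so p-values reflect only how these samples vary. Breeding season and collection site are not tied to samples in the labels and were not tested. The test was limma-trend, run in R 4.3.3 with limma 3.58.1, on log2(value + 1) for the 18016 rows whose mean was at least 1, Benjamini-Hochberg adjusted, threshold 0.05; differences are half-size minus control, and this scale understates changes of low genes. edgeR 4.0.16, DESeq2 1.42.0 and limma-voom on recovered reads, other pseudocounts, filters and scalings, left-out libraries and the pair as a block were alternatives. The tests without the block were checked on simulated data that held no pairs, and the fits with the block were not checked. Pairs were the matching of half-size to control libraries whose mean correlation was highest (0.64; the next best had 0.21), and blocked p-values take no account of that choice. Ratios used exact permutation tests over samples (SciPy 1.17.1). Named genes were the 3 members, pathway lists matched by symbol at a mean of at least 1, and the 3 nearest named rows per member. Members and lists were chosen with earlier results of these data known. Gpc-5, gpc-6, Sp-Smad2/3 and Hbox7 were matched to list entries after their row names were seen.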

Additional observations from a re-analysis of the deposited data

How the results depend on the processing

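No paired analysis by replicate number was possible because the column headers give none, and the replicate block below uses the pairs A, B and C. The number of called rows, 0 in limma-trend (242 at unadjusted p under 0.05), was also 0 in limma-voom and edgeR, with each pseudocount, filter and scaling tried, and without each library (range 0 to 0). DESeq2 called 4. Under the replicate block limma-trend called 3, edgeR 11, DESeq2 21, and limma-trend 80 without pair A, 0 without pair B and 31 without pair C; the cause was not tested. None of these calls was a member, whose adjusted p was at least 0.375 in every setting. CHRD ran from 0.15 to 0.56 and BMP1 from 0.38 to 0.73 over 21 settings. Leaving out 1 library gave 0.20 to 0.56 for CHRD, 0.39 to 0.73 for BMP1 and -0.19 to 0.00907 for BMP2/4, the 1 change of sign among the members. The ratios kept their sign in 10 settings each, between 0.25 and 0.66 for CHRD to BMP2/4, 0.45 and 0.83 for BMP1 to BMP2/4, and 0.16 and 0.22 for BMP1 to CHRD. With the replicate block, exact sign flips within pairs gave p = 0.25 for each ratio, the smallest 3 pairs allow. Of 597 values of 30 genes and ratios, 565 kept their direction and their side of the threshold, 24 changed sign and 8 passed the threshold, all 8 with the block (dri in 5 settings, and Dlx, IrxA and HE in limma-trend without pair A). Single left-out libraries turned gpc-6 (-0.32 to 0.000914), FoxG (-0.098 to 0.091), FGFR (-0.18 to 0.040), NBC (-0.085 to 0.023), HE (-0.29 to 2.75), Sp-Smad2/3 (-0.28 to 0.14), Not (-0.15 to 0.27), FoxA (-0.54 to 0.034), SLC12A2 (-0.047 to 0.45) and otx (-0.14 to 0.00854). Sp-Smad2/3 was 0.000469 in DESeq2 and FoxG -0.019 with total read scaling. With the block, FGFR was 0.016 without pair B, and without pair C HE was -0.32, Sp-Smad2/3 0.14, Not -0.10 and FoxG -0.10. The limma-trend interval of the BMP2/4 difference spans levels from 0.703-fold to 1.28-fold, so a difference within that range is not excluded. With the pair as a block it spans 0.764-fold to 1.17-fold, which takes no account of the choice of pairs from these values. The smallest difference that could have been detected was not computed.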
